A study of Mus musculus with 25 samples.

Results

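The genes described here are 39 that encode soluble lysosomal hydrolases, lysosomal membrane proteins, subunits of the proton pump that acidifies the lysosome, and 2 transcription factors of lysosomal genes. They were taken by gene symbol from a list that was drawn up with earlier results of these data known, though no measured level enters the rule, and are 39 of the 19938 genes measured. They comprise 9 pump genes, 7 membrane proteins, 9 glycosidases, 7 proteins of lipid handling, 3 sulfatases, 2 acid phosphatases and the 2 factors Tfeb and Tfec. Levels came from 25 Affymetrix Mouse Gene arrays of phagocytes sorted from the Peyer's patches, the lymphoid tissue of the small intestine, of wild-type female C57BL/6 mice aged 6 to 8 weeks, with 42 mice pooled for each array. Of untreated mice there were 5 arrays of CD11b+ conventional dendritic cells (cDC), 3 of DN cDC (sorted without CD11b, CD8a or CD4), 3 of CD8a+ cDC, 3 of TIM-4- LysoMac and 3 of TIM-4+ LysoMac. From mice given R848, a ligand of the receptor TLR7, by mouth and sampled after 9 h, there were 3 arrays of CD11b+ cDC and 5 of CD8a+ cDC. The titles of these 8 samples call them steady state as well, so the treatment was taken from their remaining labels. All cDC were gated on high CD11c, on MHC class II and on absence of BST2, with SIRPa on CD11b+ and DN cDC and not on CD8a+ cDC. LysoMac, macrophages by their labels, carried high CD11c, little MHC class II, and SIRPa, BST2 and CD4. All mice shared 1 strain and sex, and each array stands for a pool, so differences between single mice were not measured. Whether arrays of 1 group differ by more than the pool is not given, so the p-values measure the spread between these arrays.

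The lysosome is the acid compartment in which phagocytes break down what they take up. A proton pump built of a membrane sector and a sector that splits ATP acidifies it, glycosylated membrane proteins such as LAMP1 line it, and many hydrolases with acid pH optima degrade sugars, lipids, sulfated glycans and phosphate esters within it. TFEB and its relatives of the MiT/TFE family bind short palindromic sites in front of many of these genes, and macrophages are known for large and highly degradative lysosomes whereas dendritic cells are known for slower degradation that preserves peptides for presentation.

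The site bound by these factors has the core CACGTG and a longer form TCACGTGA, each of which reads the same on both strands, and the CLEAR element adds a base at either end. Of the 39 genes, 32 had an entry in the RefSeq promoter table of GRCm38.p6, and the 250 bases before their start were searched. The core was found in 7 of the 32 (21.9%), against 6.86% of 27025 genes in the table. TCACGTGA, which contains the core, was found in 3 of the 32 (9.38%), against 0.907% of all genes, and the full CLEAR element in 0 of the 32, against 0.270%. A gene was counted if any of its start sites had a match, and 4 of the 32 had more than 1 start site. Such sites are known in front of many lysosomal genes, so these shares are a description and no test. The genes with the core were Atp6v1a, Lamp1, Mcoln1, Gaa, Gla, Glb1 and Naglu. The 4 sequences printed here hold either the longer form or several copies of the core, are written 5' to 3' on the strand of the gene, end at the base before the start, and carry each match in capitals. Lamp1 lies at chr8:13158911-13159160 on the plus strand with cores beginning 61, 45, 28 and 15 bases before the start, Mcoln1 at chr8:3500269-3500518 on the plus strand, Gla at chrX:134601006-134601255 on the minus strand, and Atp6v1a at chr16:44139260-44139509 on the minus strand.
Lamp1: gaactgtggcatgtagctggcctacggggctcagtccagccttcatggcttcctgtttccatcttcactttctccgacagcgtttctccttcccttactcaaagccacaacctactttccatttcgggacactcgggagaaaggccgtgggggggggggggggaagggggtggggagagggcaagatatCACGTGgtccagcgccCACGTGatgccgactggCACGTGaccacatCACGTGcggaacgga
Mcoln1: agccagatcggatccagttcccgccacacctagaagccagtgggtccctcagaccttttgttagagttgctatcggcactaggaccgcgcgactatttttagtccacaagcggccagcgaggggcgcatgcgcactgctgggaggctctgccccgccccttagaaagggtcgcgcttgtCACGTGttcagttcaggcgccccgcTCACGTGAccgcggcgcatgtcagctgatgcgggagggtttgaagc
Gla: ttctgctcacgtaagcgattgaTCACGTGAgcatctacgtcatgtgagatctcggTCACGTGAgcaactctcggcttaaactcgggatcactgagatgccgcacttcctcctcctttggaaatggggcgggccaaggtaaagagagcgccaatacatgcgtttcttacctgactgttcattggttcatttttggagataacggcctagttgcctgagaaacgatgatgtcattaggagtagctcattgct
Atp6v1a: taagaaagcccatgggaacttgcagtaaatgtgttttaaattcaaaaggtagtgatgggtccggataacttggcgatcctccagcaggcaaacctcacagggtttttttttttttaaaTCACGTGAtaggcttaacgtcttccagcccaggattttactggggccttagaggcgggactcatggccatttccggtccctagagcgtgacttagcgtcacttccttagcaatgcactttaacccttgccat
A match of letters is a description of the sequence, and binding was not measured in these arrays.

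Levels are the deposited log2 signals, so a difference of 1 is a 2-fold change, and levels of different genes are not set against each other because each probe set has its own response. A gene was called where limma's moderated test gave an adjusted p below 0.05, with Benjamini-Hochberg adjustment over all genes tested in that comparison. Beside each count the share of all genes called is given as the background. The deposited columns did not share 1 row order: they fell into 3 array sets, namely 14 arrays of untreated LysoMac, DN and CD11b+ cells, 3 of untreated CD8a+ cells and 8 from R848 mice, and the row names fitted only the R848 set. Rows of the other sets were aligned to that set, and 38 of the 39 genes kept a value in the first set (all but Atp6v1c1) and 36 in the second (without Atp6ap1, Atp6v1c1 and Galns). Comparisons inside 1 set (LysoMac with CD11b+ and DN cDC, TIM-4+ with TIM-4- LysoMac, DN with CD11b+ cDC, and both subsets after R848) do not depend on the alignment for their differences, only for the name of the gene. In the remaining comparisons the array set changes together with the subset or the treatment, so these cannot be told apart. The cell labels fitted some marker lists and not others. Over the 8 of 12 macrophage markers with a value in all arrays, the mean level was 9.47 and 9.50 in the LysoMac groups and 4.98 to 6.78 in untreated cDC. Over 7 of 8 cDC markers it was 6.15 to 6.44 in LysoMac and 9.89 to 10.2 in untreated cDC. Over 5 of 8 markers of CD8a+ cDC it was 9.65 in untreated CD8a+ cDC and 5.76 to 5.78 in the other untreated cDC. Over 4 markers of plasmacytoid dendritic cells it was 9.37 and 9.38 in LysoMac and 6.25 to 7.65 in untreated cDC. Itgam, the gene of CD11b, was at 7.07 in untreated CD11b+ cDC, but at 4.20 and 4.21 in R848 CD11b+ and CD8a+ cDC. Of 6 markers of CD11b+ cDC, Itgam among them, 3 were lower in CD8a+ than CD11b+ cDC after R848 and 0 higher. Of the 8 macrophage markers 6 were higher in LysoMac than in CD11b+ and DN cDC and 1 was lower. Fcgr1, a marker of many macrophages, was at 4.30 in both LysoMac groups against 4.16 in CD11b+ and 5.06 in DN cDC. Of the 7 cDC markers 6 were lower in LysoMac than in CD11b+ and DN cDC and 1 was higher. That was Dpp4, at 10.88 and 10.70 against 10.62 and 10.41. Of the 5 markers of CD8a+ cDC, 4 were higher in untreated CD8a+ than CD11b+ cDC and 1, Batf3, was lower (8.39 against 8.90). In sorted bulk samples, fewer cells of a type and less RNA per cell cannot be told apart.

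**Figure D1:**
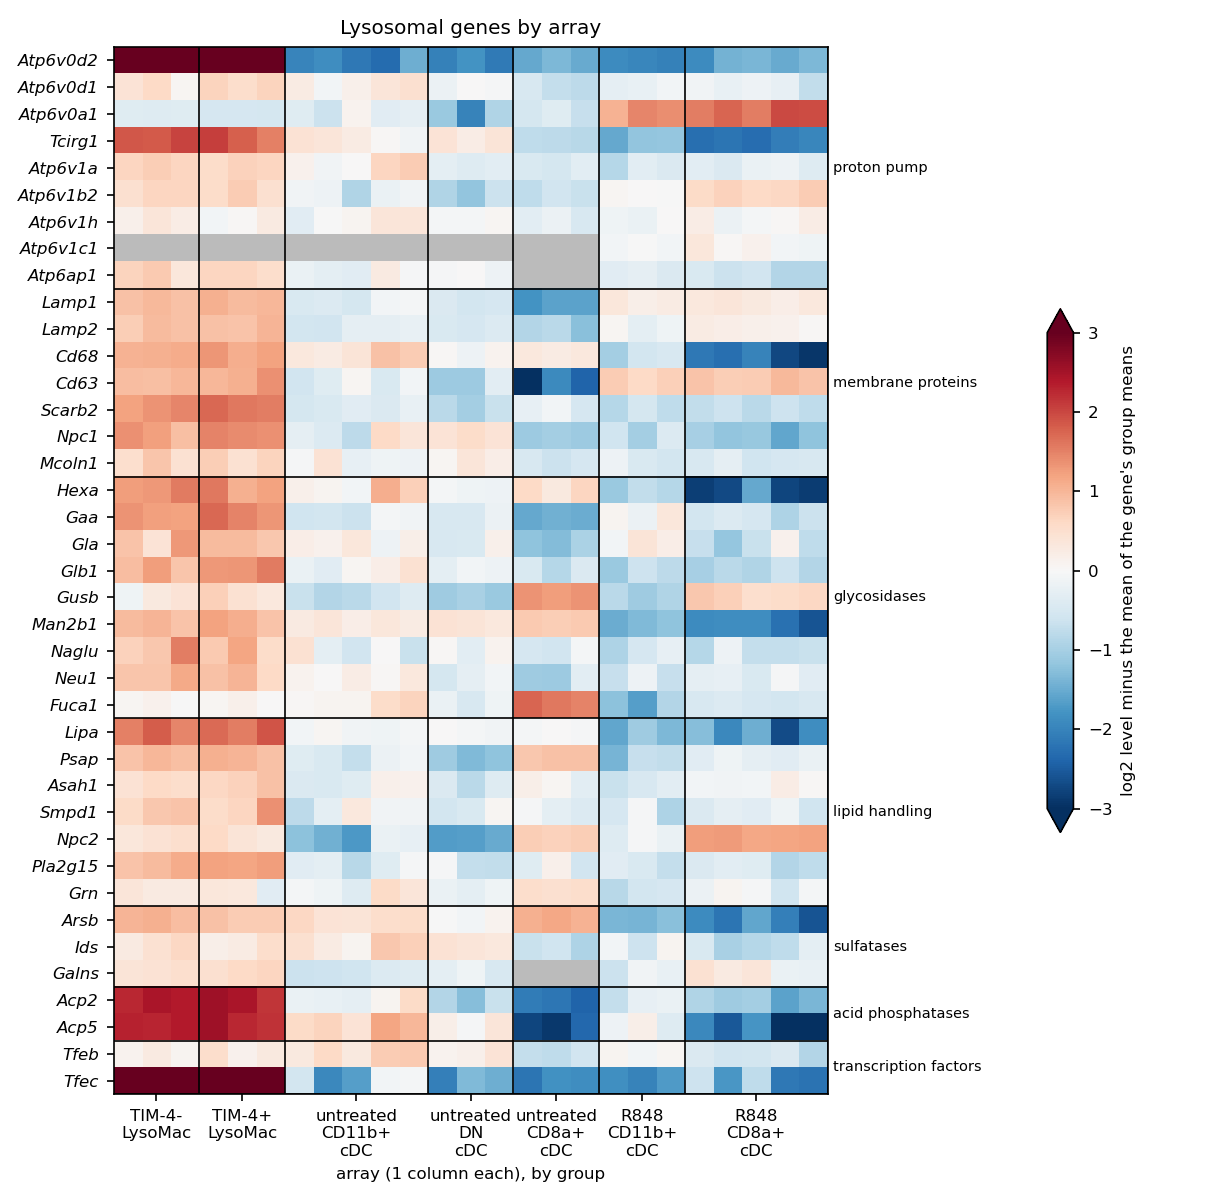
Heat map of the 39 genes (rows, by role) in the 25 arrays (columns, by group); colour is the log2 level minus the mean of that gene's group means, from -3 to 3, and grey marks genes without an aligned row. Both LysoMac groups are red for most genes, and Arsb, Man2b1, Hexa and Cd68 are blue in the R848 groups.

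The first question was how LysoMac, the macrophages, differ from the dendritic cells of the same tissue in their lysosomal genes. Of the 38 genes measured in the 6 LysoMac arrays and the 8 untreated CD11b+ and DN cDC arrays, 33 (86.8%) were higher in LysoMac, 0 were lower and 5 were not called. Over all 17282 genes tested, 32.0% were called, 14.7% as higher and 17.3% as lower. Because the list was drawn up with earlier results of these data known, its shares are set beside those of all genes without a test. No member was lower at an unadjusted p below 0.05 either. The median difference of the 38 genes was 1.09 and that of all genes 0.00. The 6 LysoMac arrays lay apart from all 8 cDC arrays for 29 of the 38 genes, against 15.4% of all genes with groups that did not overlap, and 21 of the 38 differed by 2-fold or more, against 7.77% of all genes. Both LysoMac group means lay above both cDC group means for 33 of the 38 (86.8%), against 29.0% of all genes. The highest of these 4 means was that of TIM-4+ LysoMac for 26 genes (68.4%) and of TIM-4- LysoMac for 8 (21.1%). Over all genes these shares were 24.2% and 23.2%. Between the LysoMac groups themselves 1 of the 38 genes was called, as given below.

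Among the pump genes, 7 of 8 were higher. Atp6v0d2, the d2 isoform of a subunit of the membrane sector, known from osteoclasts and macrophages, had levels of 9.74, 9.95 and 9.78 in TIM-4- LysoMac and 10.32, 10.66 and 10.91 in TIM-4+ LysoMac. In untreated CD11b+ cDC it was at 3.81, 3.93, 3.66, 3.49 and 4.32, and in DN cDC at 3.77, 4.01 and 3.68. No cDC array came near a LysoMac array, and the difference of the log2 signals was 6.40 ± 0.12 (SE), with an adjusted p of 1.2e-20. The cDC levels lay around or below the array medians over all probe sets, which were 4.29 to 4.60, so they may be background and no fold is given. Atp6v0d1, the d1 isoform that most cells use, was at 8.29, 8.49 and 7.93 in TIM-4- LysoMac, at 8.55, 8.41 and 8.54 in TIM-4+ LysoMac, and between 7.71 and 8.37 in the cDC arrays (median 7.96). These ranges overlapped, and the difference was 0.40 ± 0.10 (adjusted p = 0.00444). The 2 isoforms of the membrane-spanning a subunit were both called as higher than the mean of the cDC groups. Tcirg1, the a3 isoform of lysosomes and osteoclasts, was higher by 1.59 ± 0.09 without overlap. Atp6v0a1, the a1 isoform, was higher by 0.38 ± 0.14 with overlap (adjusted p = 0.0456). Its means were 7.06 in TIM-4- LysoMac, 6.91 in TIM-4+ LysoMac, 7.13 in CD11b+ cDC and 6.08 in DN cDC. In this gene LysoMac thus lay above DN cDC and not above CD11b+ cDC. Of the sector that splits ATP, Atp6v1b2 was higher by 1.20 ± 0.10 and the catalytic Atp6v1a by 0.68 ± 0.12, whereas the regulatory Atp6v1h, at 7.34 to 7.77 in LysoMac and 7.07 to 7.78 in cDC, was not called (0.12 ± 0.10). Atp6ap1, which takes part in pump assembly, was higher by 0.69 ± 0.10. Of 13 other pump genes measured, 5 were higher and 0 lower, with a median of 0.13, and the largest differences were those of Atp6v0b (1.55 ± 0.10) and Atp6ap2 (1.14 ± 0.09).

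All 7 membrane proteins were higher, with a median of 1.30. Scarb2 (LIMP-2), which carries glucocerebrosidase to the lysosome, was at 10.08 to 10.60 in LysoMac (median 10.38) and at 7.86 to 8.65 in cDC (median 8.39). The gap between these ranges exceeded 1 log2 unit, and the difference was 2.09 ± 0.08 (adjusted p = 1.06e-15). The tetraspanin Cd63 (1.60 ± 0.15), the coat proteins Lamp1 (1.36 ± 0.07) and Lamp2 (1.30 ± 0.08), the cholesterol exporter Npc1 (1.12 ± 0.16) and the macrophage glycoprotein Cd68 (0.89 ± 0.13) were also higher, each with every LysoMac array above every cDC array. The smallest difference was that of the calcium channel gene Mcoln1 (0.52 ± 0.10), at 7.48 to 7.85 in LysoMac against 6.77 to 7.45 in cDC. Of 27 other lysosomal membrane proteins, 17 were higher and 2 lower (median 0.72), with Gpnmb at 6.43 ± 0.35 and the amino acid transporters Slc36a1 at 2.59 ± 0.16 and Slc38a9 at -0.93 ± 0.13.

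Among the glycosidases 8 of 9 were higher, led by Gaa, which degrades lysosomal glycogen. Gaa was at 9.05 to 9.55 in LysoMac (median 9.17) and at 7.19 to 7.77 in cDC (median 7.36), a difference of 1.77 ± 0.11 without overlap. The beta-galactosidase Glb1 (1.26 ± 0.12), the beta-glucuronidase Gusb (1.20 ± 0.09), the hexosaminidase chain Hexa (1.18 ± 0.19), Naglu of heparan sulfate breakdown (1.06 ± 0.18), the sialidase Neu1 (0.95 ± 0.12), the alpha-galactosidase Gla (0.94 ± 0.17) and the mannosidase Man2b1 (0.67 ± 0.09) followed. Hexa was the only one of these 8 whose ranges overlapped, because CD11b+ array 4 reached 10.16 and the lowest LysoMac array was at 10.15. The fucosidase Fuca1 was not called: its 6 LysoMac arrays lay between 9.08 and 9.23, and the cDC arrays between 8.62 and 9.76, a difference of 0.06 ± 0.11 (95% interval -0.17 to 0.28).

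Of the 7 genes of lipid handling 6 were higher. Psap, the precursor of the saposins that present sphingolipids to hydrolases, was at 12.02 to 12.24 in LysoMac (median 12.12) and at 9.85 to 11.08 in cDC (median 10.58), a difference of 1.74 ± 0.10. The acid lipase Lipa was at 10.72 to 11.13 against 9.11 to 9.30, and Npc2, which binds cholesterol in the lumen, at 10.64 to 10.96 against 8.64 to 10.15; each was higher by 1.71, with an SE of 0.14 for Lipa and 0.18 for Npc2. The LysoMac arrays of these 3 genes all lay above the cDC arrays. The phospholipase Pla2g15 (1.53 ± 0.14), the sphingomyelinase Smpd1 (1.05 ± 0.17) and the ceramidase Asah1 (0.98 ± 0.11) were higher as well. Grn, the progranulin gene, was not called (0.27 ± 0.14, 95% interval -0.02 to 0.55), and TIM-4+ array 3, at 10.24, lay below the other LysoMac arrays at 10.84 to 10.94.

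Both acid phosphatases were higher. Acp2, the lysosomal acid phosphatase, was at 10.71 to 11.09 in LysoMac (median 10.97) and at 7.29 to 9.13 in cDC (median 8.32), which is a difference of 2.84 ± 0.14, or 7.15-fold. Acp5, the tartrate-resistant acid phosphatase by which osteoclasts are stained, was at 12.32 to 12.69 against 10.11 to 11.33, a difference of 1.86 ± 0.27. The sulfatases split: Galns (0.93 ± 0.11) and Arsb (0.65 ± 0.10) were higher, and Ids, at 7.96 to 8.41 in LysoMac and 7.86 to 8.59 in cDC, was at -0.03 ± 0.13 (95% interval -0.30 to 0.24). Arsb was measured by 2 transcript clusters. The cluster used had means of 10.42 in TIM-4+ LysoMac and 10.11 in CD11b+ cDC, and the other had 9.71 and 9.74, so TIM-4+ LysoMac lay above CD11b+ cDC on the first and not on the second.

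The 2 transcription factors parted. Tfec, a member of the MiT/TFE family found in myeloid cells, was at 9.77, 9.87 and 9.70 in TIM-4- LysoMac and at 10.10, 9.84 and 9.69 in TIM-4+ LysoMac. In CD11b+ cDC it was at 5.40, 4.03, 4.31, 5.88 and 5.90, and in DN cDC at 3.91, 4.64 and 4.50. All LysoMac arrays lay over 3 log2 units above the highest cDC array, and the difference of the log2 signals was 5.10 ± 0.29 (adjusted p = 2.46e-12). All 3 DN arrays and CD11b+ arrays 2 and 3 were close to or below the array medians of 4.29 to 4.60, so no fold is given here either. Tfeb, the family's best known regulator of lysosomal genes, was at 6.73 to 7.17 in LysoMac (median 6.83) and at 6.74 to 7.42 in cDC (median 6.99), and its difference of -0.15 ± 0.09 was not called (adjusted p = 0.268, 95% interval -0.34 to 0.05). Of 19 other genes of this family and its control, 8 were higher and 3 lower, with Mitf at 2.69 ± 0.16, Fnip2, a partner of folliculin, at 3.42 ± 0.15 and Rraga, a GTPase that recruits these factors to the lysosome, at -0.90 ± 0.12. Of 23 other lysosomal hydrolases and cofactors 17 were higher and 1 lower (Pld4, -2.81 ± 0.15), and of 16 genes of sorting to lysosomes 9 were higher and 2 lower, the adaptor Gga2 at 2.27 ± 0.09 and the mannose-phosphate receptor Igf2r at 1.79 ± 0.10 among the former. Of 15 cathepsins and other lysosomal peptidases 11 were higher and 2 lower (median 1.13).

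**Figure D2:**
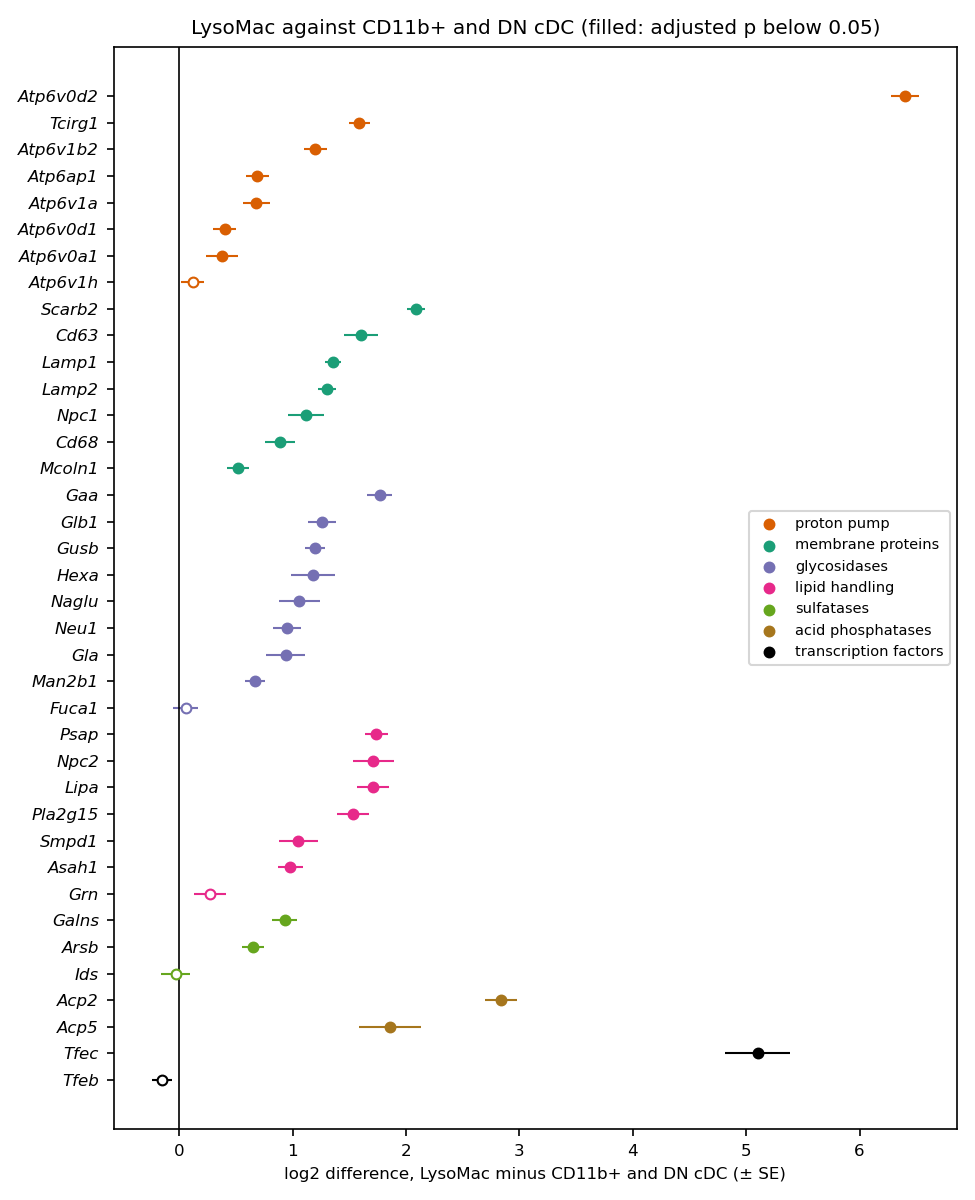
Log2 difference of LysoMac (6 arrays) minus CD11b+ and DN cDC (8 arrays) with its SE for 38 genes, coloured by role; filled points have an adjusted p below 0.05. The points of Atp6v0d2 (6.40) and Tfec (5.10) lie to the right of all others, and Atp6v1h, Fuca1, Grn, Ids and Tfeb are the 5 open points near 0.

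Within the untreated CD11b+ group, arrays 4 and 5 lay above arrays 1 to 3 for 23 of the 38 genes (60.5%) and below them for 1, against 35.2% and 18.9% of all 17282 genes. For Npc2 the arrays were at 9.13, 8.92, 8.64, 10.15 and 10.12, and for Npc1 at 7.34, 7.20, 6.83, 8.21 and 7.97. The labels name no batch that would set these arrays apart. Without arrays 4 and 5, again 33 of 38 genes were higher in LysoMac and 0 lower.

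The 3 untreated CD8a+ arrays gave a second set of dendritic cells to hold against the same 6 LysoMac arrays. Of 36 genes, 28 were higher in LysoMac, 2 lower and 6 not called, where 54.9% of 15644 genes were called, 40.5% as higher and 14.3% as lower. The median was 1.21 over the 36 genes and 0.16 over all genes, and the groups did not overlap for 33, against 51.3% of all genes. With every array shifted to a common median, which moved the median of all genes to -0.12 and the share of called genes that were higher from 73.9% to 34.2%, 25 genes were higher and 5 lower, and with cyclic loess 28 and 2 (51.7% of called genes higher). Since the LysoMac arrays are shared with the comparison above, the values stand beside those and are no second support for them.

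Acp5 was at 7.38, 7.25 and 7.80 in CD8a+ cDC, below all cDC arrays of the first set, and LysoMac were higher by 4.99 ± 0.34. Acp2, at 6.46, 6.39 and 6.16 in CD8a+ cDC, gave 4.59 ± 0.18, and Tfec, at 3.76, 4.15 and 4.09, below every array median, gave a difference of log2 signals of 5.83 ± 0.38. Cd63 (3.54 ± 0.20), Gaa (2.88 ± 0.14), Tcirg1 (2.64 ± 0.12), Lamp1 (2.62 ± 0.09) and Npc1 (2.37 ± 0.21) were higher in LysoMac by over 4-fold. Atp6v0d2 was at 4.25, 4.44 and 4.28 in CD8a+ cDC, again around the array medians, a difference of log2 signals of 5.90 ± 0.15, while Atp6v0d1 was at 7.39, 7.17 and 7.10, a difference of 1.15 ± 0.14. Tfeb, which was not called against the other cDC, was at 5.92, 5.87 and 6.07 in CD8a+ cDC and higher in LysoMac by 0.92 ± 0.12.

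Lower in LysoMac were 2 glycosidases. Fuca1 was at 10.84, 10.68 and 10.57 in CD8a+ cDC against 9.08 to 9.23 in LysoMac, a difference of -1.54 ± 0.14, and Gusb at 9.19, 9.10 and 9.20 against 7.72 to 8.57, a difference of -0.97 ± 0.12. Both pairs of ranges were apart. Atp6v0a1 (0.09 ± 0.18), Psap (0.10 ± 0.13), Man2b1 (0.23 ± 0.12), Arsb (-0.19 ± 0.13), Npc2 (-0.30 ± 0.23) and Grn (-0.32 ± 0.18) were not called. Psap was at 11.99, 12.04 and 12.05 in CD8a+ cDC, above every CD11b+ and DN array and next to the 12.02 to 12.24 of LysoMac. At a common median Npc2 (-0.59), Grn (-0.60) and Arsb (-0.47) were called as lower in LysoMac, and Atp6v1h, Hexa and Asah1 were no longer called.

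The LysoMac groups themselves, sorted with and without the phosphatidylserine receptor TIM-4, were compared with each other. Of 38 genes 1 was higher in TIM-4+ cells and 0 were lower by limma, where 0.434% of all 17282 genes were called (0.168% as higher and 0.266% as lower), and at an unadjusted p below 0.05 there were 4 higher and 0 lower. The median difference was 0.06, the range -0.19 to 0.81, and the groups did not overlap for 8 of the 38 genes, against 10.8% of all genes. The 1 gene called was Atp6v0d2, whose 3 TIM-4+ arrays at 10.32 to 10.91 lay above the 3 TIM-4- arrays at 9.74 to 9.95, a difference of 0.81 ± 0.17 (95% interval 0.45 to 1.17, adjusted p = 0.0353). That call was lost when only these 2 groups entered the fit and when any 1 of their arrays was left out, except TIM-4+ array 1. For Lamp1 the 95% interval of the difference was -0.12 to 0.31 and for Lamp2 -0.19 to 0.29, whereas for Tfec (-0.81 to 1.00) and Acp5 (-0.83 to 0.83) the arrays leave room for nearly a 2-fold difference. Tfeb was at 0.17 ± 0.14 and Atp6v0d1 at 0.26 ± 0.16, both not called. The other genes below an unadjusted p of 0.05 were Glb1 (0.39 ± 0.17), Gusb (0.31 ± 0.13) and Scarb2 (0.27 ± 0.11), with adjusted p of 0.789, 0.781 and 0.713. In simulated data for this comparison, 90 of 100 genes changed by 1 log2 unit and 43 of 100 changed by 0.5 were called. Among 16 genes of sorting to lysosomes Igf2r was higher in TIM-4+ cells (0.68 ± 0.14, adjusted p = 0.0309).

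**Figure D3:**
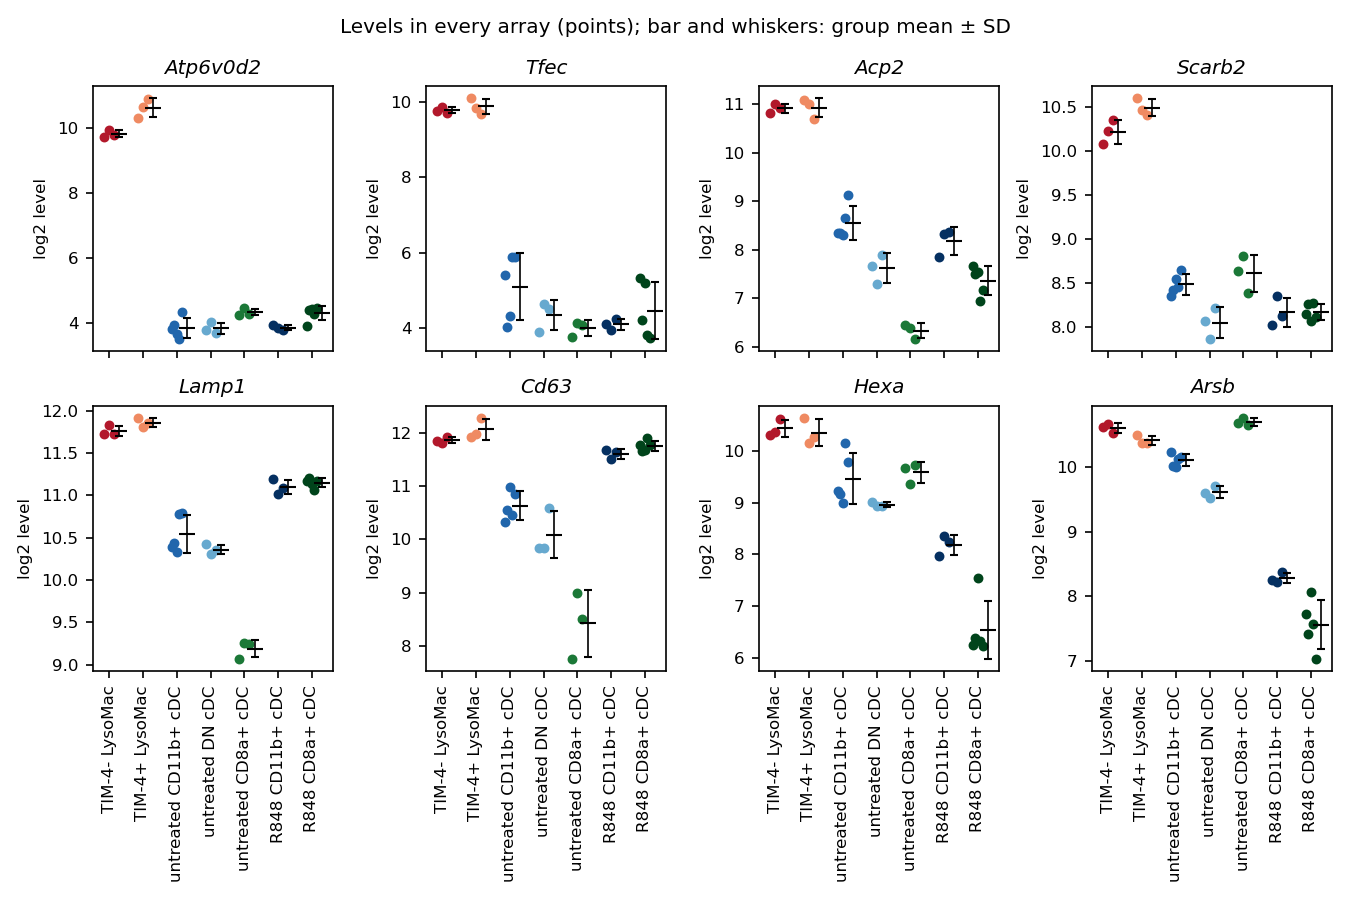
Log2 levels of 8 genes in each of the 25 arrays (points) with the group mean and SD (bar and whiskers), by group. Atp6v0d2 and Tfec are high in both LysoMac groups only, Cd63 and Lamp1 are lowest in untreated CD8a+ cDC and at 11.02 or above in both R848 groups, and Hexa and Arsb are lowest in the R848 groups.

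Between untreated DN and CD11b+ cDC, both of the first array set, 8 of 38 genes were lower in DN cDC and 0 higher by limma, where 4.29% of all genes were called, 2.50% as higher and 1.79% as lower. At an unadjusted p below 0.05, 16 genes were lower and 1 was higher. The median was -0.31 over the 38 genes and -0.04 over all genes, and the groups did not overlap for 11, against 9.74% of all genes. Atp6v0a1 was at 6.31, 5.41 and 6.53 in DN cDC and at 7.07, 6.79, 7.53, 7.09 and 7.16 in CD11b+ cDC. Its DN arrays all lay below, and the difference was -1.04 ± 0.19 (adjusted p = 0.00124). Acp2 was at 7.67, 7.29 and 7.90 in DN cDC against 8.35, 8.34, 8.30, 8.65 and 9.13, a difference of -0.94 ± 0.19. Psap was at 10.10, 9.85 and 9.96 against 10.81, 10.71, 10.46, 10.99 and 11.08, a difference of -0.84 ± 0.14 and the smallest adjusted p of the 8 (0.000357). In both genes the groups were apart. Atp6v1a (-0.62 ± 0.15), Atp6v1b2 (-0.61 ± 0.14), Fuca1 (-0.55 ± 0.15), Arsb (-0.50 ± 0.14) and Scarb2 (-0.44 ± 0.10) were lower too. Tfec was at -0.75 ± 0.39 (adjusted p = 0.332), Tfeb at -0.33 ± 0.13 (adjusted p = 0.172), Atp6v0d1 at -0.30 ± 0.14 and Atp6v0d2 at -0.02 ± 0.15.

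The number called depended on single arrays: it was 5 without CD11b+ array 5 or without DN array 1, 3 without DN array 2, 4 without CD11b+ arrays 4 and 5 (3 lower and 1 higher), and 2 when only these groups entered the fit. Markers of other cells moved with the same comparison: 10 of 11 stromal and endothelial markers were higher in DN cDC, and the mean over 10 of them was 6.97 to 7.29 in the DN arrays and 4.16 to 5.03 in the CD11b+ arrays. Sparc, which stromal cells secrete, was at 9.54 ± 0.31 (SD, n = 3) in DN and 4.57 ± 1.01 (n = 5) in CD11b+ cDC. Of the same 11 markers 9 were lower in LysoMac than in CD11b+ and DN cDC together. Their part in the lower lysosomal genes was not tested.

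The untreated CD8a+ and CD11b+ cDC, of different array sets, differed in 26 of 36 genes, with 7 higher and 19 lower in CD8a+ cDC, where 47.4% of 15644 genes were called, 8.39% as higher and 39.0% as lower. The median was -0.39 over the 36 genes and -0.19 over all genes, and the groups did not overlap for 22, against 43.9% of all genes. At a common median 10 genes were higher and 14 lower while the share of called genes that were higher went from 17.7% to 63.0%, and with cyclic loess 10 were higher and 15 lower (49.6%). The larger differences were lower levels in CD8a+ cDC of both phosphatases, Acp5 (-3.44 ± 0.36) and Acp2 (-2.22 ± 0.19), of Cd63 (-2.21 ± 0.20), Lamp1 (-1.36 ± 0.09), Gla (-1.30 ± 0.22), Ids (-1.20 ± 0.17) and Gaa (-1.10 ± 0.14). Both transcription factors were lower, Tfeb at -1.24 ± 0.13 and Tfec at -1.10 ± 0.39 (adjusted p = 0.0239, overlapping arrays, and -0.58 and not called without CD11b+ arrays 4 and 5), and so was Atp6v0d1 (-0.90 ± 0.14). Higher in CD8a+ cDC were Gusb (1.97 ± 0.12), Npc2 (1.69 ± 0.23), Fuca1 (1.32 ± 0.15), Psap (1.22 ± 0.14), Arsb (0.59 ± 0.14), Man2b1 (0.48 ± 0.12) and Atp6v0d2 (0.48 ± 0.15). Cd63, for example, was at 7.76, 9.00 and 8.50 in CD8a+ cDC and at 10.33, 10.54, 10.98, 10.45 and 10.84 in CD11b+ cDC, and Npc2 at 11.09, 11.06 and 11.10 against 8.64 to 10.15, with no overlap in either gene. Atp6v0d2 was low in both, at 4.25 to 4.44 and 3.49 to 4.32, and its ranges overlapped. Markers of other cells differed as well. In CD8a+ cDC 6 of 8 macrophage, 3 of 3 T cell and 2 of 3 B cell markers were lower, with 0 higher in each list. The mean was 4.98 against 6.78 over the macrophage markers and 4.42 against 6.68 over the T cell markers. The part of such cells in the lysosomal genes was not tested.

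The same 2 subsets after R848 were measured within 1 array set, so their difference does not rest on the alignment across sets. Of all 39 genes, 6 were higher and 10 lower in CD8a+ cDC, where 12.5% of 19938 genes were called, 5.74% as higher and 6.75% as lower. The median was 0.01, and the groups did not overlap for 17 of 39 genes, against 16.9% of all genes. Markers of other cells differed as well: 4 of 11 macrophage markers were lower in CD8a+ cDC and 0 higher, and 4 of 4 B cell markers were lower, with means over 3 of them of 6.40 to 7.39 against 8.02 to 8.70. Their part in the lysosomal genes was not tested. Acp5 was at 8.21, 7.60, 8.38, 6.33 and 6.25 in CD8a+ cDC and at 9.99, 10.32 and 9.76 in CD11b+ cDC. Every CD8a+ array lay below, over a wide spread, and the difference was -2.67 ± 0.36 (adjusted p = 1.21e-05). Cd68, at 8.28, 8.15, 8.40, 7.69 and 7.50 against 9.39, 9.87 and 9.93, gave -1.72 ± 0.18, and Hexa, at 6.25, 6.37, 7.54, 6.32 and 6.22 against 7.97, 8.35 and 8.23, gave -1.65 ± 0.26. Neither gene had overlapping groups. Tcirg1 (-0.85 ± 0.13), Acp2 (-0.81 ± 0.19), Gla (-0.80 ± 0.22), Man2b1 (-0.75 ± 0.12), Arsb (-0.72 ± 0.14), Gaa (-0.69 ± 0.14) and Tfeb (-0.60 ± 0.13) were also lower. Gusb was at 8.66, 8.56, 8.34, 8.39 and 8.46 in CD8a+ cDC and at 7.05, 6.78 and 6.94 in CD11b+ cDC, which is 1.56 ± 0.12 higher, and Npc2 was higher by 1.43 ± 0.23. Fuca1 (0.77 ± 0.15), Psap (0.69 ± 0.14), the pump subunit Atp6v1b2 (0.64 ± 0.14) and Asah1 (0.48 ± 0.15) were higher as well. Lamp1 (0.05 ± 0.09), Cd63 (0.14 ± 0.20), Atp6v0d1 (-0.11 ± 0.14), Atp6v1c1 (0.12 ± 0.11) and Tfec (0.35 ± 0.39) were not called, and the 95% interval for Lamp1 was -0.14 to 0.24. Atp6v0d2 remained low in both, at 0.45 ± 0.15 (adjusted p = 0.063).

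Both subset comparisons use different arrays. Of the 36 genes measured in each, 13 were called in both and 10 of these in the same direction, and over all genes 74.4% of 1186 called in both had the same direction. The 10 were Acp5, Acp2, Gaa, Gla, Tcirg1 and Tfeb, lower in CD8a+ cDC untreated and after R848, and Gusb, Npc2, Fuca1 and Psap, higher in both. Arsb and Man2b1 went from higher in untreated CD8a+ cDC to lower after R848, and Atp6v1b2 from lower to higher. Under both other scalings the untreated difference of Atp6v1b2 was not called.

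**Figure D4:**
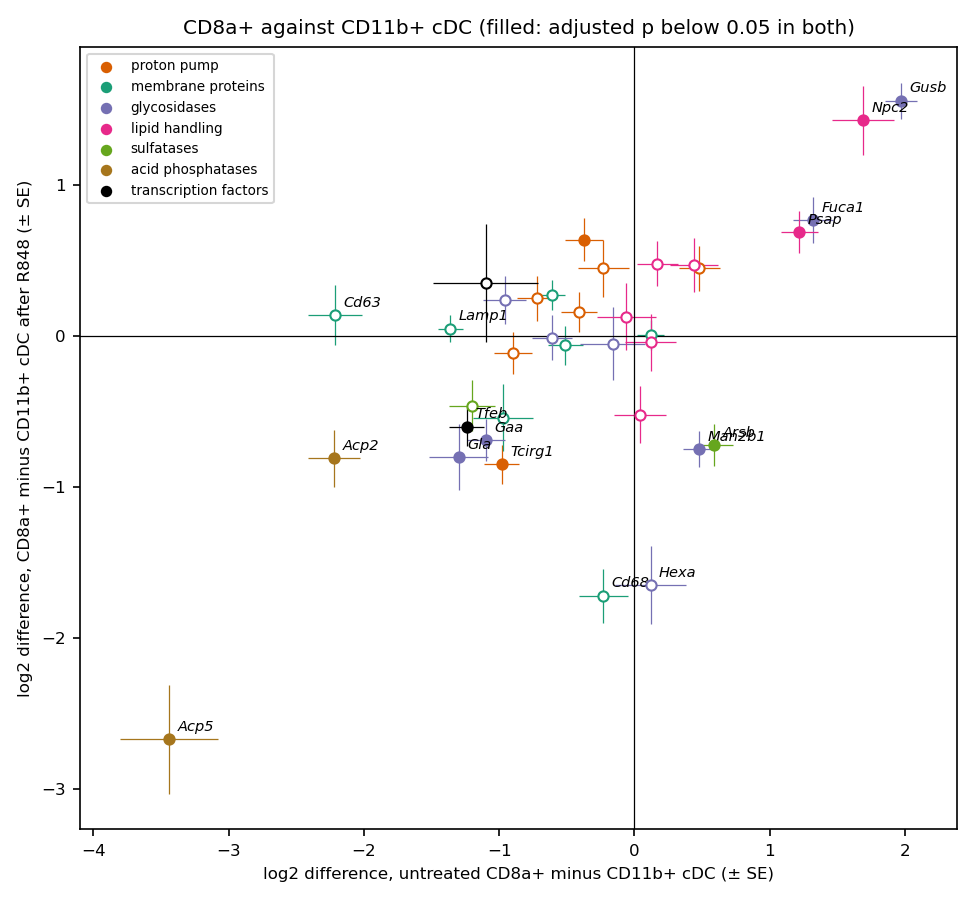
Log2 difference of CD8a+ minus CD11b+ cDC, untreated (horizontal, across array sets) and after R848 (vertical, within 1 set), with SE, for 36 genes coloured by role; filled points were called in both. Gusb, Npc2, Fuca1 and Psap lie in the upper right, Acp5 in the lower left, and Cd63 and Lamp1 near 0 on the vertical axis only.

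R848 and untreated arrays belong to different sets in both subsets, and the row alignment matched the untreated to the R848 levels of the same subset, which can favour small differences, so the array set and the treatment cannot be told apart in what follows. In CD11b+ cDC 19 of 38 genes were lower after R848 and 5 higher, where 40.5% of 17282 genes were called, 17.4% as higher and 23.1% as lower. The groups did not overlap for 19 of the 38, against 37.8% of all genes. The median was -0.37 over the 38 genes and -0.03 over all genes, and both other scalings gave 7 genes higher and 14 lower. Untreated CD11b+ arrays 4 and 5, which lay above arrays 1 to 3 for 23 of the 38 genes (60.5%, against 35.2% of all genes), enter this comparison. Leaving out 1 array gave 19 to 26 called genes. In CD8a+ cDC 11 of 36 were higher and 11 lower, where 56.6% of 17370 genes were called, 42.0% as higher and 14.6% as lower, the medians were -0.01 and 0.19, and the groups did not overlap for 20 of the 36, against 57.0% of all genes. At a common median 7 were higher and 12 lower, and with cyclic loess 10 and 11, while the share of all called genes that were higher went from 74.3% to 50.7% and 51.0%. Markers of B cells were higher in the R848 arrays, 4 of 4 measured in CD11b+ and 3 of 3 in CD8a+ cDC, and over 3 of them the mean was 6.11 in untreated and 8.32 in R848 CD11b+ cDC, and 4.65 and 6.95 in CD8a+ cDC, with arrays from 8.02 to 8.70 and from 6.40 to 7.39 after R848. Ms4a1 reached 8.62 ± 0.57 (SD, n = 3) in R848 CD11b+ cDC against 5.88 ± 0.53 (n = 5) untreated. Over 3 T cell markers the mean went from 6.14 to 7.22 untreated to 4.76 to 4.91 after R848 in CD11b+ cDC and from 4.28 to 4.50 untreated to 4.89 to 6.67 in CD8a+ cDC. In CD8a+ cDC 2 of 3 neutrophil markers were higher after R848, and the mean over the 3 was 3.29 untreated and 4.36 after R848. Among them S100a8 was at 3.43 ± 0.05 (SD, n = 3) and 6.02 ± 0.95 (n = 5), and Ly6g at 2.82 and 3.02. Over 7 cDC markers the mean was 10.2 untreated and 9.48 after R848 in CD11b+ cDC, and 9.96 and 8.78 in CD8a+ cDC. Whether such cells were present, and their part in the lysosomal values, was not tested.

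Of the 10 genes that were lower in both subsets, 5 encode hydrolases (Arsb, Man2b1, Hexa, Fuca1 and Lipa). Arsb, the arylsulfatase of dermatan sulfate, was at 10.24, 10.02, 10.01, 10.13 and 10.16 in untreated CD11b+ cDC and at 8.25, 8.22 and 8.37 after R848, a difference of -1.83 ± 0.14. In CD8a+ cDC it was at 10.68, 10.77 and 10.65 untreated and at 7.73, 7.41, 8.06, 7.57 and 7.03 after R848, a difference of -3.14 ± 0.14. Untreated and R848 arrays were apart by over 1 log2 unit in both subsets, and the other Arsb cluster had means of 9.74 and 7.87 in CD11b+ cDC and of 10.55 and 6.99 in CD8a+ cDC. Man2b1 fell in CD11b+ (-1.62 ± 0.12) and CD8a+ cDC (-2.85 ± 0.12), as did Hexa (-1.28 ± 0.26 and -3.05 ± 0.26). Fuca1 (-1.54 ± 0.15 and -2.09 ± 0.15) and the acid lipase Lipa (-1.26 ± 0.19 and -1.82 ± 0.19) fell in both too. Each of these groups was apart from its untreated counterpart. Psap was lower by less (-0.58 ± 0.14 and -1.11 ± 0.14), as was Grn (-0.70 ± 0.18 and -0.67 ± 0.18). Glb1 (-0.87 ± 0.15) and Ids (-0.67 ± 0.17) were lower in CD11b+ cDC, and in CD8a+ cDC they were at -0.26 ± 0.15 and 0.07 ± 0.17, not called. Gusb was lower in CD8a+ cDC (-0.68 ± 0.12) and at -0.26 ± 0.12 in CD11b+ cDC. Gaa, in contrast, was higher in both, by 0.47 ± 0.14 and 0.88 ± 0.14. Gla was higher in CD8a+ cDC (0.53 ± 0.22, adjusted p = 0.0473), with R848 arrays at 7.21, 6.74, 7.23, 8.02 and 7.13 that overlapped the untreated 6.69, 6.59 and 6.95, and at 0.02 ± 0.22 in CD11b+ cDC. Its call was lost under both other scalings (0.36 and 0.47). Npc2 was higher in CD11b+ cDC (0.76 ± 0.23, adjusted p = 0.0134), where its arrays at 9.97, 10.33 and 10.15 overlapped the untreated 8.64 to 10.15, and at 0.49 ± 0.23 in CD8a+ cDC (adjusted p = 0.0792). In CD11b+ and CD8a+ cDC in turn, Asah1 (-0.29 ± 0.15 and 0.02 ± 0.15), Smpd1 (-0.29 ± 0.22 and -0.10 ± 0.22), Pla2g15 (-0.13 ± 0.19 and -0.29 ± 0.19) and Naglu (-0.35 ± 0.24 and -0.24 ± 0.24) were called in neither.

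Membrane proteins went both ways. Lamp1 was at 10.39, 10.44, 10.33, 10.78 and 10.79 in untreated CD11b+ cDC and at 11.19, 11.02 and 11.09 after R848, a difference of 0.55 ± 0.09. In CD8a+ cDC it was at 9.07, 9.25 and 9.24 untreated and at 11.17, 11.21, 11.14, 11.06 and 11.17 after R848, a difference of 1.96 ± 0.09. The arrays of both subsets lay within 11.02 to 11.21 after R848, having been apart without it. Cd63 was higher by 0.98 ± 0.20 in CD11b+ cDC, where it was at 11.67, 11.50 and 11.64 after R848, and by 3.33 ± 0.20 in CD8a+ cDC, where it was at 11.76, 11.65, 11.68, 11.89 and 11.77. Lamp2 was higher in CD8a+ cDC (1.13 ± 0.10) and at 0.25 ± 0.10 in CD11b+ cDC (adjusted p = 0.0565). Cd68 fell in CD11b+ cDC (-1.20 ± 0.18) and in CD8a+ cDC (-2.70 ± 0.18), and so did Scarb2 (-0.32 ± 0.10 and -0.43 ± 0.10). Npc1 (-0.58 ± 0.22) and Mcoln1 (-0.37 ± 0.13) were lower in CD11b+ cDC, and at -0.15 ± 0.22 and 0.08 ± 0.13 in CD8a+ cDC. The calls of Scarb2, Npc1 and Mcoln1 in CD11b+ cDC were lost under a common median.

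The 2 isoforms of the pump's a subunit changed in opposite directions in both subsets. Atp6v0a1 was at 7.07, 6.79, 7.53, 7.09 and 7.16 in untreated CD11b+ cDC and at 8.47, 8.90 and 8.81 after R848 (1.60 ± 0.19), and in CD8a+ cDC at 6.89, 7.06 and 6.74 untreated and at 8.95, 9.18, 8.97, 9.41 and 9.38 after R848 (2.28 ± 0.19). Tcirg1 was at 8.55, 8.48, 8.36, 8.16 and 8.03 in untreated CD11b+ cDC and at 6.58, 6.93 and 6.97 after R848 (-1.49 ± 0.13), and in CD8a+ cDC at 7.37, 7.34 and 7.29 and then at 5.87, 5.94, 5.85, 6.05 and 6.17 (-1.36 ± 0.13). No untreated array overlapped the R848 arrays of its subset in either gene. Atp6v1b2 was higher in CD8a+ cDC (1.32 ± 0.14) and at 0.31 ± 0.14 in CD11b+ cDC (adjusted p = 0.0797). Atp6v1a fell by 0.83 ± 0.15 in CD11b+ cDC and was at 0.14 ± 0.15 in CD8a+ cDC. Atp6v1h was higher in CD8a+ cDC (0.38 ± 0.13) and at -0.19 ± 0.13 in CD11b+ cDC. Atp6v0d1 was lower in CD11b+ cDC (-0.42 ± 0.14) and higher in CD8a+ cDC (0.37 ± 0.14), with overlapping arrays in both, and neither call held at a common median. Atp6v0d2 stayed at 3.77 to 3.92 and 3.91 to 4.45 after R848 and was not called in either subset (0.00 ± 0.15 and -0.03 ± 0.15). Among 13 other pump genes, 2 were higher and 6 lower in CD11b+ cDC, and 3 were higher and 1 lower in CD8a+ cDC.

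Of the factors, Tfeb fell by 0.53 ± 0.13 in CD11b+ cDC, from 6.94, 7.24, 6.94, 7.40 and 7.42 to 6.73, 6.55 and 6.69, and was at 0.11 ± 0.13 in CD8a+ cDC. Tfec was lower in CD11b+ cDC (-0.99 ± 0.39, adjusted p = 0.0459), with arrays at 4.12, 3.96 and 4.25 after R848 that overlapped the untreated 4.03 to 5.90. That call was lost without untreated arrays 4 and 5 (-0.47, adjusted p = 0.325) and at a common median. In CD8a+ cDC Tfec was at 0.47 ± 0.39 and not called. Its levels in R848 CD11b+ and untreated CD8a+ cDC lay below the array medians of 4.29 to 4.60, so they may be background. Of 19 other genes of the family and its control, 2 were higher and 6 lower in CD11b+ cDC and 6 were higher and 7 lower in CD8a+ cDC. Rragd, a GTPase by which these factors are controlled at the lysosome, was higher in both (1.34 ± 0.15 and 2.82 ± 0.15), and Mitf was lower in CD11b+ cDC (-1.60 ± 0.21). Acp5 was at -0.89 ± 0.36 in CD11b+ cDC (adjusted p = 0.0506) and -0.12 ± 0.36 in CD8a+ cDC, and Acp2 was higher in CD8a+ cDC (1.03 ± 0.19) and at -0.38 ± 0.19 in CD11b+ cDC.

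Both R848 comparisons use different arrays. Their R848 arrays share 1 set, while the untreated arrays of the subsets belong to different sets. The array set therefore cannot be told apart from a difference between the responses either. Of 36 genes 16 were called in both subsets, 4 as higher in both, 10 as lower in both and 2 (Atp6v0d1 and Neu1) in opposite directions, and of 4062 genes called in both, 86.1% had 1 direction. The 4 were Atp6v0a1, Lamp1, Cd63 and Gaa, and the 10 were Tcirg1, Cd68, Scarb2, Hexa, Man2b1, Fuca1, Lipa, Psap, Grn and Arsb. The difference between the responses, tested as an interaction in limma, was called for 19 of 36 genes, 13 with the higher value in CD8a+ cDC and 6 with the lower, where 32.8% of 15644 genes were called, 26.9% as higher and 5.87% as lower. This split followed the scaling: cyclic loess gave 9 and 8, and a common median 7 and 8, where the share of called genes that were higher went from 82.1% to 49.0% and 43.3%. The larger of these differences were those of Cd63 (2.35 ± 0.29), Hexa (-1.77 ± 0.36), Cd68 (-1.50 ± 0.25), Lamp1 (1.41 ± 0.13), Acp2 (1.41 ± 0.27) and Arsb (-1.31 ± 0.20). Neu1, which removes sialic acid, was at -0.65 ± 0.16 in CD11b+ and 0.55 ± 0.16 in CD8a+ cDC, a difference of 1.20 ± 0.23. At a common median its CD8a+ value was 0.38 and no longer called, and its difference was 0.95.

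**Figure D5:**
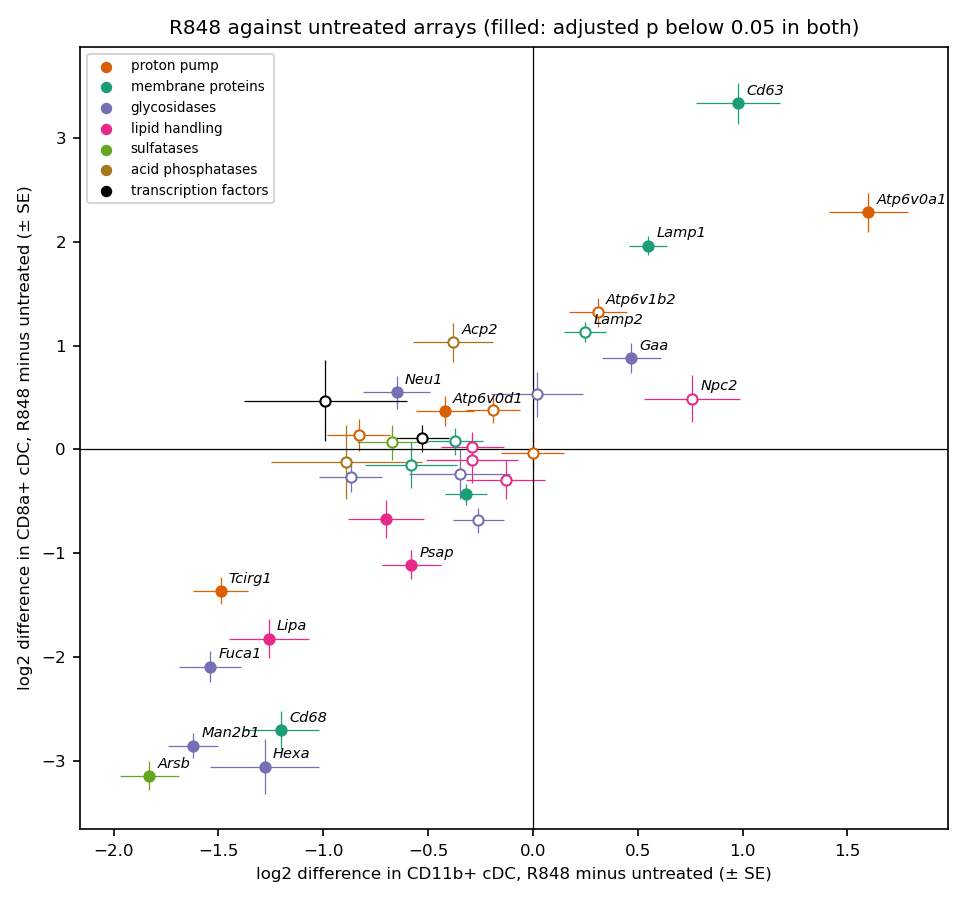
Log2 difference of R848 minus untreated arrays in CD11b+ cDC (horizontal) and CD8a+ cDC (vertical), with SE, for 36 genes coloured by role; filled points were called in both subsets. Cd63, Atp6v0a1, Lamp1 and Gaa lie in the upper right, and Arsb, Hexa, Man2b1, Cd68, Fuca1, Lipa and Tcirg1 in the lower left.

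Within the R848 CD8a+ group, arrays 4 and 5 lay below arrays 1 to 3 for 13 of 39 genes (33.3%) and above them for 4, against 13.7% and 13.6% of all 19938 genes. Acp5 had the largest SD of the 39 genes in that group (7.36 ± 1.01, SD, n = 5). Without these 2 arrays 10 genes were higher and 11 lower than in untreated CD8a+ cDC, and 6 were higher and 9 lower than in R848 CD11b+ cDC.

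The replicate SD of the 38 or 39 genes had a median of 0.11 to 0.28 over the groups and was at most 0.60 in the groups of 3 arrays other than untreated CD8a+ cDC, where Cd63 reached 0.62. The genes with the core CACGTG before their start were Lamp1, Gaa, Gla, Glb1, Naglu, Mcoln1 and Atp6v1a. Of these, 7 of 7 were higher in LysoMac than in CD11b+ and DN cDC, by 0.52 to 1.77. So were 33 of all 38 members measured (86.8%), among them genes without the core such as Acp2 and Scarb2, and 14.7% of all genes. Genes with the core were not tested against those without it. After R848 Lamp1 and Gaa were higher in both subsets, Atp6v1a, Glb1 and Mcoln1 were lower in CD11b+ cDC, Gla was higher in CD8a+ cDC, and Naglu was called in neither.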

How the data were processed

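Gene levels were measured on 25 Affymetrix arrays, 3 or 5 per group. The authors deposited log2 values made with RMA in Affymetrix Expression Console 1.4.1, per the submitters' processing notes, which do not say whether all arrays were normalized together. The number of arrays limits the precision.

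Of 35556 deposited rows, the 28939 from the first annotated row on were used. Rows of both untreated array sets were aligned to the R848 set by a hidden Markov model on the levels (posterior at least 0.95 in 3 settings, neighbour score at least 0.5 over 15 neighbours on either side), and 82.6% and 84.1% were accepted. Across genes, 2 clusters of 1 gene correlated at 0.833 and 0.840 after it and at 0.144 and 0.081 before it, against 0.83 in the R848 set. Gene symbols did not enter the alignment, but levels did. Rows matched to R848 levels can take over that correlation, so this is no independent check. In simulations, the R848 CD8a+ profile was aligned to the R848 CD11b+ profile of the same array set, with rows dropped and inserted at random. There, wrong partners made up 0.367% of accepted rows or less. Of rows changed by 2 log2 units at least 76.4% were accepted, against at least 85.8% of all rows. The alignments used here cross array sets, and their own error rate was not measured.

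Of these rows 21789 had 1 gene symbol, 1621 several and 5529 none; only the first were used. All 7 groups entered 1 limma 3.58.1 fit (R 4.3.3), with Benjamini-Hochberg adjustment over all genes tested. On simulated data, 65 of 100 genes changed by 0.5 log2 units and 99 of 100 changed by 1 were called in LysoMac against CD11b+ and DN cDC. In both simulated comparisons, values were normal and independent between arrays, with 1 SD per gene for all groups and no other difference between groups.

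The members and lists were chosen with earlier results of these data known. The rule for genes with full statistics was the 6 largest called differences, every member called against the majority, and Tfeb, Tfec, Atp6v0d1 and Atp6v0d2; other members are named where they were called or help to cover the list. Alternatives were 2 other scalings, other variance settings, array weights, a replicate block, a filter on low genes, the mean of clusters, stricter alignment, only the groups compared and leaving out each array; leaving out arrays 4 and 5 of a group was added after seeing the data. Python 3.11.15 with numpy 2.4.6, pandas 2.3.3, numba 0.67.0, scipy 1.17.1 and matplotlib 3.10.9 did the rest.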

Additional observations from a re-analysis of the deposited data

Results flagged for a closer look

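In 4 of 77 groups of 5 arrays, 1 array lay far from the others, and chance gives about 1 such group in 20. Atp6v0d1 was at 7.14 in R848 CD8a+ array 5, with the next array at 7.64. Atp6v1b2 was at 8.35 in untreated CD11b+ array 3, with the next at 9.06. Hexa was at 7.54 in R848 CD8a+ array 3, with the next at 6.37, and Naglu at 5.20 in R848 CD8a+ array 2, with the next at 4.68.

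The R848 response differed between the subsets by the interaction test in limma for 12 of the genes chosen for full statistics. The response was higher in CD8a+ than in CD11b+ cDC for Cd63 (2.35), Tfec (1.46), Lamp1 (1.41), Acp2 (1.41), Atp6v0d1 (0.79) and Tfeb (0.64). It was lower for Hexa (-1.77), Cd68 (-1.50), Arsb (-1.31), Man2b1 (-1.23), Fuca1 (-0.55) and Psap (-0.53). The differences of Atp6v0d1, Tfeb and Tfec were no longer called at a common median. The means of Tfec were 5.11 and 4.00 in untreated CD11b+ and CD8a+ cDC and 4.11 and 4.47 after R848. All but the first lay around or below the array medians of 4.29 to 4.60, so they may be background.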

How the results depend on the processing

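In 3 comparisons an alternative changed the number of genes called by more than 1.5 times; smaller changes are given as ranges after them. With stricter row alignment, 19 genes were called between LysoMac and CD8a+ cDC, of 23 that could be tested. Between TIM-4+ and TIM-4- LysoMac 0 were called with only the groups compared (limma) and 0 to 1 when 1 array was left out. Between DN and CD11b+ cDC 4 were called with the replicate block, 2 with only the groups compared, 4 without CD11b+ arrays 4 and 5, and 3 to 9 when 1 array was left out. Leaving out 1 array gave 32 to 33 genes between LysoMac and CD11b+ and DN cDC, 29 to 30 between LysoMac and CD8a+ cDC, 24 to 26 between untreated CD8a+ and CD11b+ cDC, 15 to 18 between them after R848, 19 to 26 and 19 to 21 for R848 in CD11b+ and CD8a+ cDC, and 15 to 19 for the difference of the responses. Same-numbered arrays of different groups deviated with correlations of -0.226 to 0.183. Arrays with different numbers were not compared, so these values cannot settle whether the replicate numbers pair the arrays.

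Of 2012 values of named genes under 11 settings and each array left out, 1865 kept direction and call, 120 lost the call, 4 gained it and 23, none called, changed sign. Atp6v0d2 made up 19 of the 23. Its DN difference became 0.02 with the replicate block and without CD11b+ arrays 4 and 5 and ranged from -0.12 to 0.10 without 1 array (0.05 without DN array 3). Its R848 difference in CD11b+ cDC became 0.08 at a common median, 0.19 with cyclic loess, 0.04 with the replicate block and without CD11b+ arrays 4 and 5, and ran from -0.09 to 0.12 without 1 array. Its R848 difference in CD8a+ cDC ran from -0.07 to 0.06, and the difference of its responses from -0.15 to 0.06, without 1 array. Tfec between LysoMac groups became -0.02 without 1 array, Tfeb in CD8a+ cDC after R848 -0.06 at a common median, and Atp6v0d1 between subsets after R848 -0.15 to 0.00 without 1 array and 0.02 without CD8a+ arrays 4 and 5. The cause was not tested.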
